A study of Mus musculus with 8 samples.

Results

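The 10 genes described here encode the core of the transforming growth factor beta (TGF-beta) pathway, namely the ligands Tgfb1, Tgfb2 and Tgfb3, the receptors Tgfbr1, Tgfbr2 and Tgfbr3, and the signal mediators Smad2, Smad3, Smad4 and Smad7. They were picked by gene symbol from a table of 21895 genes, with earlier results of these data known. All 10 passed the filter that left 14990 genes for testing (a mean of at least 0.5 FPKM). FPKM is the number of sequenced fragments divided by transcript length and by the number of mapped fragments, so that levels of genes of different length can be set side by side. The libraries came from the cochlea of mice of the C57BL/6 background, 4 from miR-29a wild-type mice (WT1 to WT4) and 4 from mice lacking miR-29a (genotype miR-29a-/-, KO1 to KO4). The study's methods describe heterozygous breeding for these genotypes and name no driver that would restrict the loss to a cell type. The age is 21 days in the sample records and 2 months in the study's methods. Nothing in the labels says that each library is a separate animal, and p-values therefore measure the spread between these libraries. The deleted miR-29a itself was not analysed here.

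TGF-beta ligands are secreted in a latent form, bound to their own propeptides and to latency proteins of the extracellular matrix, and act only after release. Active ligand brings together the type II receptor, encoded by Tgfbr2, and the type I receptor, encoded by Tgfbr1, which phosphorylates Smad2 and Smad3. These join Smad4, enter the nucleus and switch on matrix and other genes, while Smad7 is induced by the same signal and blocks it at the type I receptor. The pathway is a main inducer of collagen and other matrix genes in fibroblasts, and the miR-29 family represses many of the same matrix genes.

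MiR-29a acts on messages whose 3′-untranslated region (3′-UTR) pairs with its seed, bases 2 to 8 of the mature strand. The sequences below are shown because the deleted miRNA shares this seed with its relatives miR-29b and miR-29c, whose levels were not analysed here. They are RefSeq entries on GRCm38.p6, 5′ to 3′, with the seed in capitals. MiR-29a-3p lies on chromosome 6 from 31062673 to 31062694 (minus strand).

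miR-29a-3p: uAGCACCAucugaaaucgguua

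miR-29b-3p: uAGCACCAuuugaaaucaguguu

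miR-29c-3p: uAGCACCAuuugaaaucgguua

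The complement of the seed, TGGTGCT, was searched on the transcript strand in the longest annotated 3′-UTR of each gene (GENCODE M21 on GRCm38). Tgfb2 held it at 2 places and the other 9 genes at none, which says only that these letters are not in those annotated regions. Among 14832 tested genes with an annotated 3′-UTR, 15.5% held the sequence and 2.47% held it 2 or more times. The Tgfb2 sites lie in a 3′-UTR of 2656 bases on chromosome 1 (minus strand), at its positions 1638 to 1644 and 2626 to 2632. A second coding transcript of Tgfb2 has a 3′-UTR of 1230 bases and ends before both places. The sites are shown with the bases around them, the match in capitals.

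Tgfb2 site 1, chr1:186623803-186623825: tttaattggttttttTGGTGCTc

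Tgfb2 site 2, chr1:186622815-186622837: gcatgtccggttttgTGGTGCTc

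The libraries differed in ways that genotype followed only in part. WT1 held the lowest value of the 8 libraries for 52.1% of the tested genes and WT3 for 19.7%, and these libraries stood at the ends of the first principal component (91.0 and -82.0), which held 50.9% of the variance. On this component WT2 and WT4 (-35.1 and -32.2) also lay below the KO libraries (-16.3 to 37.0), whereas WT1 lay above them. Gm8797 alone took 7.09% of the summed FPKM of WT1. FPKM keeps no read counts, and the relative depth estimated from values under 0.1 FPKM ran from 0.951 to 1.16 of the median library. Markers of cochlear cells were present in every library. The hair cell markers Myo7a and Otof were at 4.16 FPKM or more, the fibrocyte marker Coch was at 1231 FPKM or more, and the tectorial membrane markers Tecta and Tectb were low, between 0.362 and 3.04 FPKM. Markers of marrow, bone and muscle were also present and uneven, with neutrophil elastase (Elane) between 0.0893 and 200.0 FPKM.

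None of the 10 TGF-beta genes passed the test between KO and WT cochleae. By limma's moderated two-sided test on log2(FPKM + 0.1), the count at an unadjusted p-value under 0.05 was 0 of the 10, against 5.12% of all tested genes (4.61% higher and 0.507% lower in KO). Benjamini-Hochberg adjusted p-values from limma ran from 0.947 to 1.0 for the 10 genes, and 0 of the 14990 tested genes were under 0.05. The 4 WT and 4 KO values overlapped for each of the 10 genes. Over all tested genes 3.5% had groups without overlap, and 0 of 10 cannot be told from that share. The median log2 fold change was 0.07 over the 10 genes and 0.10 over all tested genes. Over all 8 libraries, the 95% intervals of 7 genes (Tgfb2, Tgfbr1, Tgfbr2, Tgfbr3, Smad2, Smad3 and Smad4) lay within a 1.5-fold change in either direction. The intervals of Tgfb1, Tgfb3 and Smad7 did not.

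**Figure D1:**
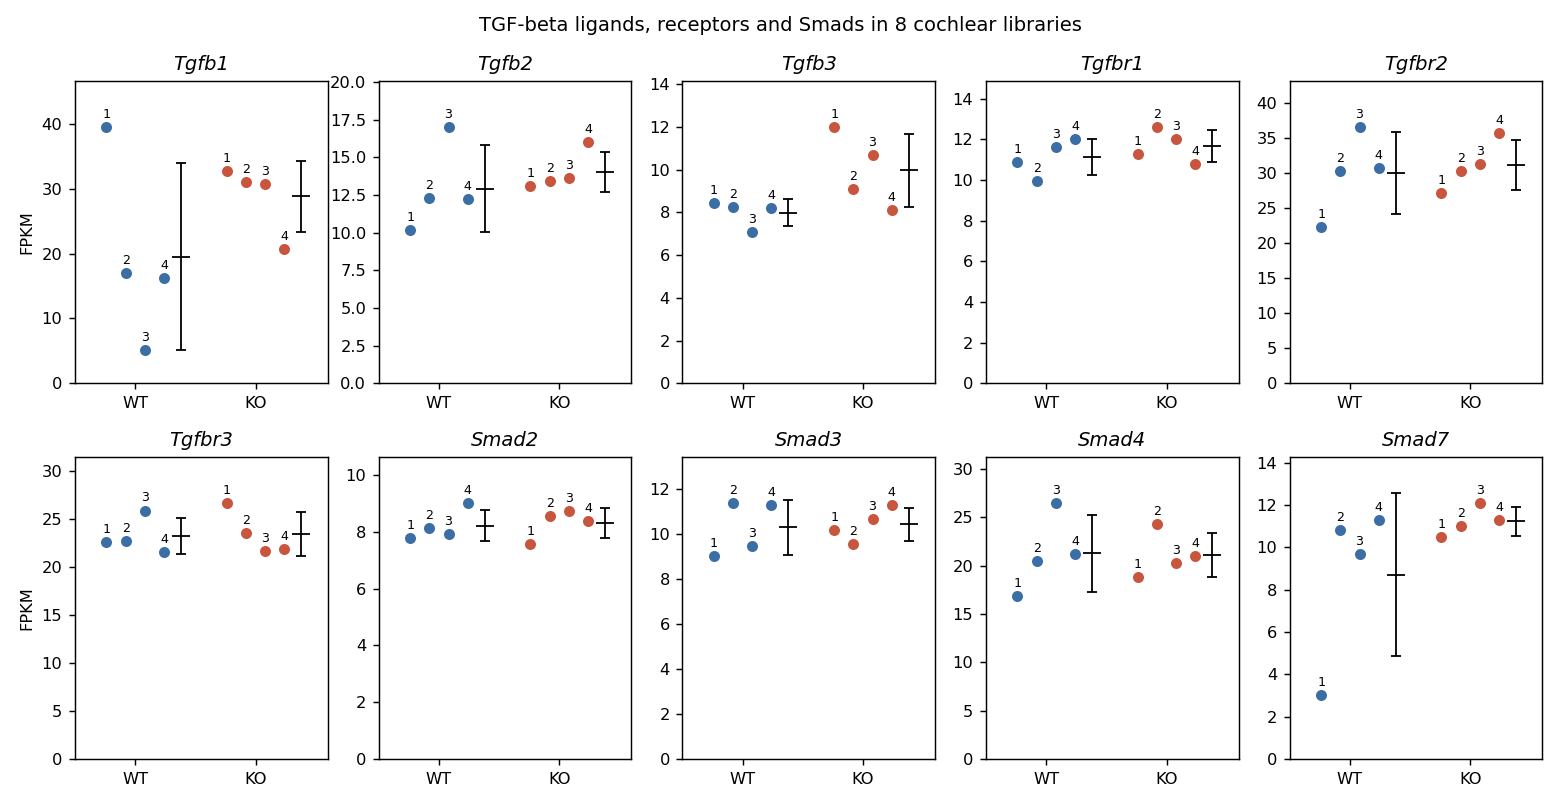
FPKM of each gene (linear axis from 0) in the 4 WT libraries (blue) and the 4 KO libraries (red), with the replicate number above each point and the mean ± SD in black. Tgfb1 ran from 5.15 to 39.5 FPKM within WT and Smad7 was at 3.03 FPKM in WT1 alone, whereas Smad2 and Tgfbr1 stayed within 1.26-fold over all 8 libraries.

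Tgfb1 encodes the ligand made by blood cells, platelets, macrophages and bone cells, and bone stores it in its matrix. Its FPKM was 39.5 in WT1, 17 in WT2, 5.15 in WT3 and 16.3 in WT4, and 32.7, 31.0, 30.8 and 20.7 in KO1 to KO4. The KO libraries thus lay above WT2, WT3 and WT4 and below WT1. The means were 19.5 ± 14.4 in WT and 28.8 ± 5.48 in KO, each with its SD over 4 libraries. The KO minus WT difference on the log2 scale was 0.87 (standard error 0.52, 95% interval -0.32 to 2.06, limma adjusted p = 0.947). One library decided this call. Without WT1 the log2 fold change of Tgfb1 was 1.32 (interval 0.40 to 2.24, limma unadjusted p = 0.0105, adjusted p = 0.157), and the groups did not overlap. In that setting 19.5% of all tested genes had an unadjusted p-value under 0.05 and 18.3% had groups without overlap. Without WT3 the log2 fold change was 0.35. With both WT1 and WT3 left out, a setting chosen after the values were seen, it was 0.76 (limma unadjusted p = 0.00513, adjusted p = 0.176), where 16.1% of the tested genes passed.

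Tgfb1 had the same highest and lowest library as the sums of some marrow and bone marker lists. In a bulk library, fewer cells of a type and less RNA per cell cannot be told apart. The summed FPKM of the 8 neutrophil and myeloid precursor genes was 9443 in WT1, 660 in WT2, 51.7 in WT3 and 906 in WT4, and 3340, 2366, 5072 and 1669 in KO1 to KO4. The sum of this list was thus highest in WT1 and lowest in WT3, as Tgfb1 was, and the 4 KO libraries lay between WT1 and the other WT libraries for both. Of its single genes, Prtn3 and Camp were highest in KO3 (75.2 and 377 FPKM, against 56.4 and 336 in WT1). The 6 megakaryocyte and platelet genes summed to 9.91 to 241 FPKM in WT and to 95.2 to 196 in KO. For the 7 osteoblast and osteocyte genes, the sums were 30.9 to 437 in WT and 198 to 397 in KO. For the 7 macrophage genes, they were 58.4 to 128 in WT and 64.6 to 127 in KO. The sums of these 3 lists were also highest in WT1 and lowest in WT3, but many single genes of the lists differed. Among osteoblast and osteocyte genes, only Bglap and Mepe were highest in WT1, though all were lowest in WT3. Ibsp, Sp7, Phex and Sost were highest in KO2 (Sost at 50.6 FPKM, against 15.7 in WT1) and Dmp1 in KO1. The platelet genes Itga2b and Gp1bb were highest in KO3. The macrophage genes C1qa (15.6) and Cx3cr1 (1.03) were lowest in WT1, Adgre1 in WT2 and Cd68 in WT4. C1qa and Mrc1 were highest in KO2 and Cx3cr1 in KO3. Unlike Tgfb1, the macrophage sum of KO4 (64.6) lay below those of WT2 (73.5) and WT4 (70.8). Osteoclast genes summed to 16.2 to 301 FPKM in WT and 165 to 308 in KO, and erythroid genes to 178 to 2870 and 2284 to 5236, with WT3 lowest and KO3 highest in both. B cell genes, also of marrow, summed to 1.02 to 42.9 FPKM in WT and 24.5 to 74.4 in KO, with WT3 lowest and KO2 highest. Over all tested genes, 4.61% were higher in KO at an unadjusted p-value under 0.05. Of the tested marker genes, 3 of 7 erythroid and 2 of 6 B cell genes passed in that direction. So did 1 of 5 osteoclast and 1 of 7 osteoblast genes, and 0 of the neutrophil, platelet and macrophage genes. Their part in the values of Tgfb1 was not tested.

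**Figure D2:**
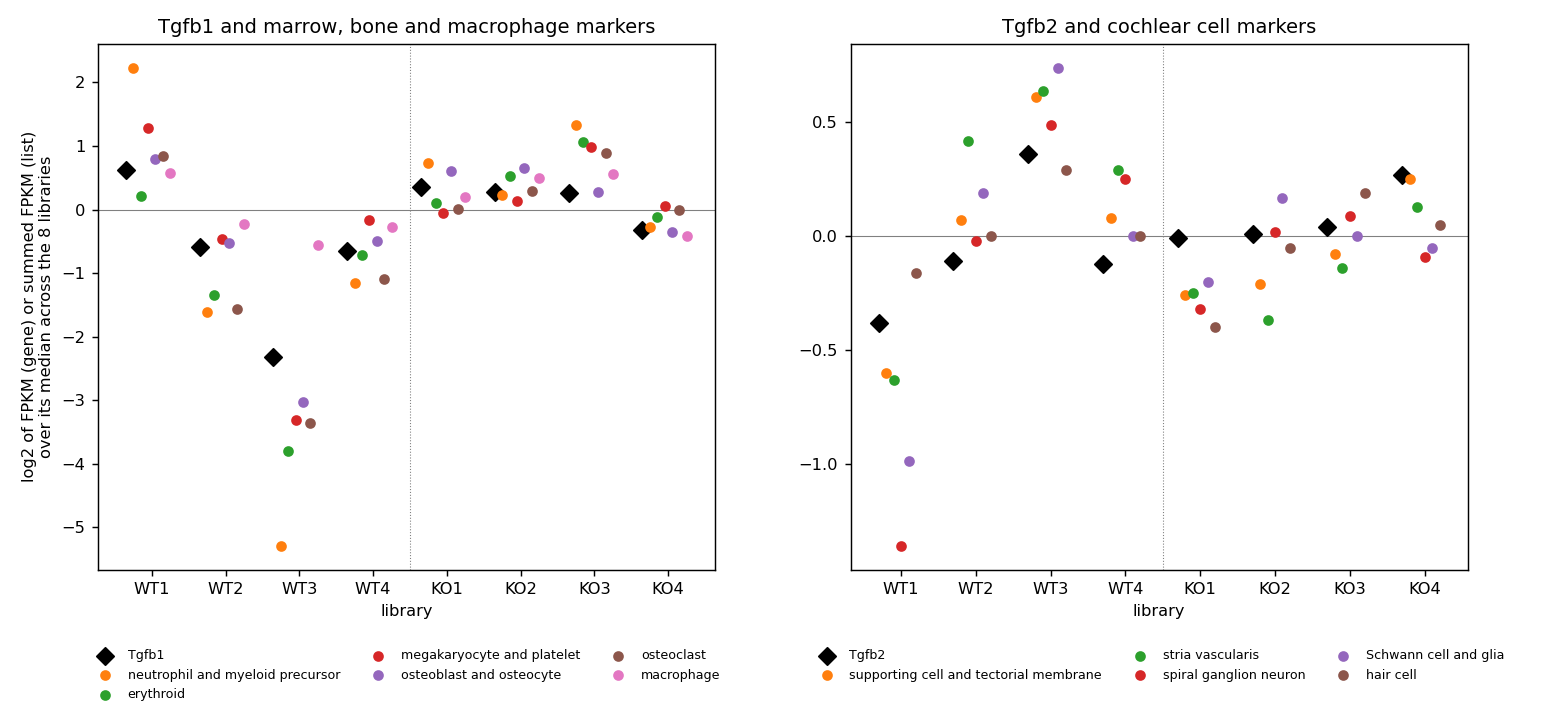
Log2 ratio of each value to its own median over the 8 libraries, for Tgfb1 (black diamonds, left) with the summed FPKM of 6 marrow, bone and macrophage marker lists, and for Tgfb2 (black diamonds, right) with 5 lists of cochlear cell markers, by library. Tgfb1 was at 0.62 in WT1 and -2.32 in WT3, and Tgfb2 was at -0.38 in WT1 and 0.36 in WT3, the opposite order. The values are not scaled between libraries.

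Tgfb2 encodes the ligand needed for the development of the inner ear, and it is the one gene of the 10 with seed matches for miR-29a. Its FPKM was 10.2, 12.3, 17 and 12.2 in WT1 to WT4 and 13.1, 13.4, 13.6 and 16 in KO1 to KO4. Every KO value was above the WT median, and all lay within the WT range. The mean FPKM (± SD, n = 4) was 12.9 ± 2.88 in WT against 14 ± 1.33 in KO. The log2 fold change of 0.14 had a 95% interval of -0.25 to 0.53, that is from 0.839-fold to 1.45-fold (limma adjusted p = 0.973). A change larger than 1.45-fold thus lies outside the interval over all 8 libraries, and smaller ones could not be told from the spread between libraries. WT1 was lowest and WT3 highest for Tgfb2, the reverse of Tgfb1. The same libraries were lowest and highest for the summed FPKM of supporting cell and tectorial membrane genes (200.0 and 464), stria vascularis genes (155 and 374), spiral ganglion neuron genes (314 and 1136) and Schwann cell genes (415 and 1385). In KO these sums were 254 to 361, 186 to 263, 648 to 858 and 722 to 929. At an unadjusted p-value under 0.05, 1 of 8 supporting cell and 1 of 8 stria genes were lower in KO, against 0.507% of all tested genes. Single genes could differ from these sums. The stria markers Kcne1 and Kcnq1 were lowest in KO1 (10.4 and 4.63 FPKM), with WT1 just above (10.9 and 5.3), and highest in WT3 (28.1 and 11.8). Other cochlear lists had another order. The hair cell genes were lowest in KO1 (29.5, against 34.9 in WT1) and the spiral ligament fibrocyte genes in WT4 (1512, against 1821 in WT1), with WT3 highest for both (47.7 and 2308). Their part in the values of Tgfb2 was not tested. The log2 fold change of Tgfb2 was 0.03 without WT1 (interval -0.31 to 0.38). Without WT3 it was 0.28 (interval -0.06 to 0.62, limma unadjusted p = 0.0949), so that the upper bound rose above that over all 8 libraries.

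Tgfb3, the third ligand, had the smallest p-value of the 10 genes. Its FPKM was 8.44, 8.24, 7.09 and 8.22 in WT1 to WT4 and 12, 9.12, 10.7 and 8.10 in KO1 to KO4. KO1, KO2 and KO3 lay above every WT library, and KO4 lay among them. The mean FPKM (± SD, n = 4) was 8.0 ± 0.612 in WT against 9.98 ± 1.72 in KO. A log2 fold change of 0.30 was fitted (standard error 0.16, interval -0.06 to 0.67, limma unadjusted p = 0.0895, adjusted p = 0.947). Without KO4 it was 0.40 (limma unadjusted p = 0.0403, adjusted p = 0.846), in a setting where 5.8% of the tested genes passed. Median-ratio scaling, which divides each library by its median ratio to a reference over genes, moved the median of all tested genes from 0.10 to 0.00. The log2 fold change of Tgfb3 was then 0.20 (limma unadjusted p = 0.342). The genes whose centred log2 values were closest to those of Tgfb3 over the 8 libraries were Zfp691, Fmod and Hnrnpul1, with root-mean-square differences of 0.0831, 0.0872 and 0.0878. Fmod encodes fibromodulin, a small collagen-binding proteoglycan, and ran from 13.2 to 14.4 FPKM in WT and from 13 to 23.1 in KO.

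The shares of the ligands differed more among the WT libraries than between the genotype means. A gene's percentage of the summed FPKM of its group does not change with scaling between libraries. Tgfb1 made up 67.9% of the ligand FPKM in WT1, 45.4% in WT2, 17.6% in WT3 and 44.4% in WT4, and 46.2% to 58.0% in KO. The mean share (± SD, n = 4) was 43.8% ± 20.6 in WT against 54.1% ± 5.39 in KO, with overlap. The difference of 10.3 percentage points was 18.3 without WT1 and 1.58 without WT3. Tgfb2 was the most abundant ligand in WT3, with 58.1%, and Tgfb1 was the most abundant in the other 7 libraries. The summed ligand FPKM was 58.1, 37.5, 29.2 and 36.7 in WT1 to WT4 and 57.8, 53.5, 55.1 and 44.8 in KO1 to KO4.

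**Figure D3:**
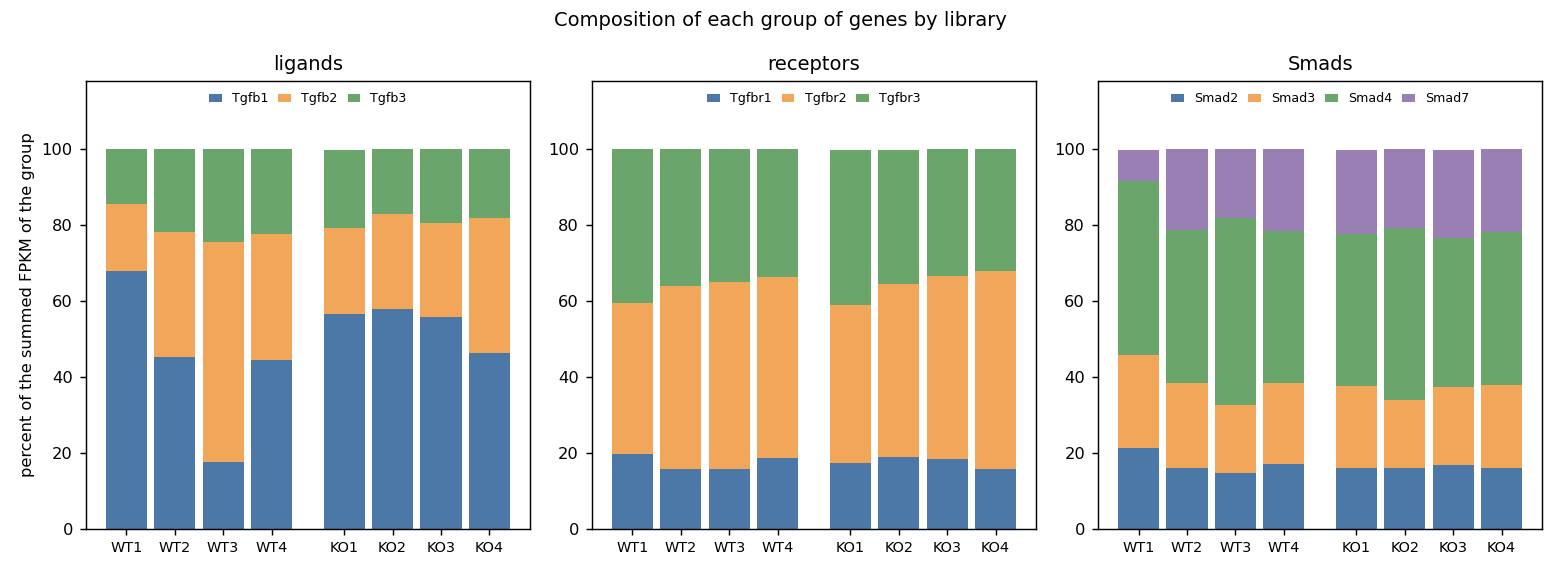
Percentage of the summed FPKM of the ligands (left), receptors (middle) and Smads (right) taken by each gene, 1 bar per library. The ligand bars of WT1 and WT3 differ most, with Tgfb1 at 67.9% and 17.6%, and Smad7 takes 8.25% in WT1 against 18.1% to 23.3% in the other libraries.

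Of the receptors, Tgfbr1 and Tgfbr3 were among the steadiest of these genes. Tgfbr1, the type I receptor kinase, was at 10.9, 9.96, 11.6 and 12 FPKM in WT1 to WT4 and at 11.3, 12.6, 12 and 10.8 in KO1 to KO4. WT2 was lowest and KO2 highest, with the others mixed between them. Its log2 fold change was 0.07 (interval -0.22 to 0.35, limma adjusted p = 0.983). Tgfbr2, the type II receptor that binds the ligand first, was at 22.2, 30.3, 36.5 and 30.7 FPKM in WT and at 27.1, 30.2, 31.2 and 35.7 in KO, in the order of replicate numbers. The KO values all lay between those of WT1 and WT3. For Tgfbr2 the log2 fold change was 0.07 (interval -0.33 to 0.46, limma adjusted p = 0.983). Tgfbr3, or betaglycan, is a membrane proteoglycan that presents ligand, TGF-beta 2 in particular, to the type II receptor. It was at 22.6, 22.7, 25.9 and 21.6 FPKM in WT and at 26.7, 23.6, 21.7 and 21.9 in KO, with KO1 highest and WT4 lowest. For Tgfbr3 the log2 fold change was 0.01 (interval -0.27 to 0.30, limma adjusted p = 0.992). The signs of these receptor changes are those of unscaled values, and all 3 were below 0 after median-ratio scaling (-0.03, -0.03 and -0.09).

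The shares of the receptors differed by less between genotypes than between libraries. Tgfbr2 made up 46.2% ± 4.34 of the receptor FPKM in WT and 46.9% ± 4.44 in KO, and Tgfbr1 made up 17.5% ± 1.98 and 17.6% ± 1.40 (SD, n = 4). Tgfbr1 was the least abundant receptor in all 8 libraries. Tgfbr2 exceeded Tgfbr3 in 7 of them, with WT1 as the exception.

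Smad2 and Smad3, the mediators that the type I receptor phosphorylates, were measured at similar levels. Smad2 was at 7.78, 8.14, 7.92 and 9.02 FPKM in WT1 to WT4 and at 7.56, 8.55, 8.73 and 8.39 in KO1 to KO4. Its spread within groups (SD 0.09 on the log2 scale) was smaller than that of all but 1.37% of the tested genes. Between genotypes the log2 fold change was 0.02 (interval -0.27 to 0.30, limma adjusted p = 0.992). Smad3 was at 9.03, 11.4, 9.48 and 11.3 FPKM in WT and at 10.2, 9.55, 10.7 and 11.3 in KO, so that every KO value lay within the WT range. Its log2 fold change was 0.03 (interval -0.29 to 0.34, limma adjusted p = 0.990). Smad4, the partner that both share, was at 16.9, 20.5, 26.5 and 21.2 FPKM in WT and at 18.8, 24.3, 20.3 and 21.0 in KO. WT1 was lowest and WT3 highest, and the log2 fold change was 0.00 (interval -0.37 to 0.37, limma adjusted p = 1.0). After median-ratio scaling, the log2 fold changes of Smad2, Smad3 and Smad4 were -0.08, -0.07 and -0.10.

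Smad7, the feedback inhibitor, was at 3.03 FPKM in WT1 and at 10.8, 9.67 and 11.3 in WT2 to WT4, against 10.5, 11, 12.1 and 11.3 in KO1 to KO4. WT1 was thus 3.19-fold below the next lowest library, and the other 7 libraries lay close together. With WT1 the log2 fold change was 0.53 (standard error 0.39, interval -0.36 to 1.41, limma adjusted p = 0.947). Without WT1 it was 0.09 (interval -0.17 to 0.34), so that most of the fitted difference came from that library. The within-group SD of Smad7 was 0.89 in WT and 0.08 in KO on the log2 scale. Smad6, the related inhibitor of the bone morphogenetic protein (BMP) branch, was likewise lowest in WT1, at 2.26 FPKM against 6.0 to 9.21 in the other libraries. WT1 held the lowest value for 5 of the 10 genes and for 35 of the 66 tested genes of the wider pathway (53.0%), close to its 52.1% over all tested genes.

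**Figure D4:**
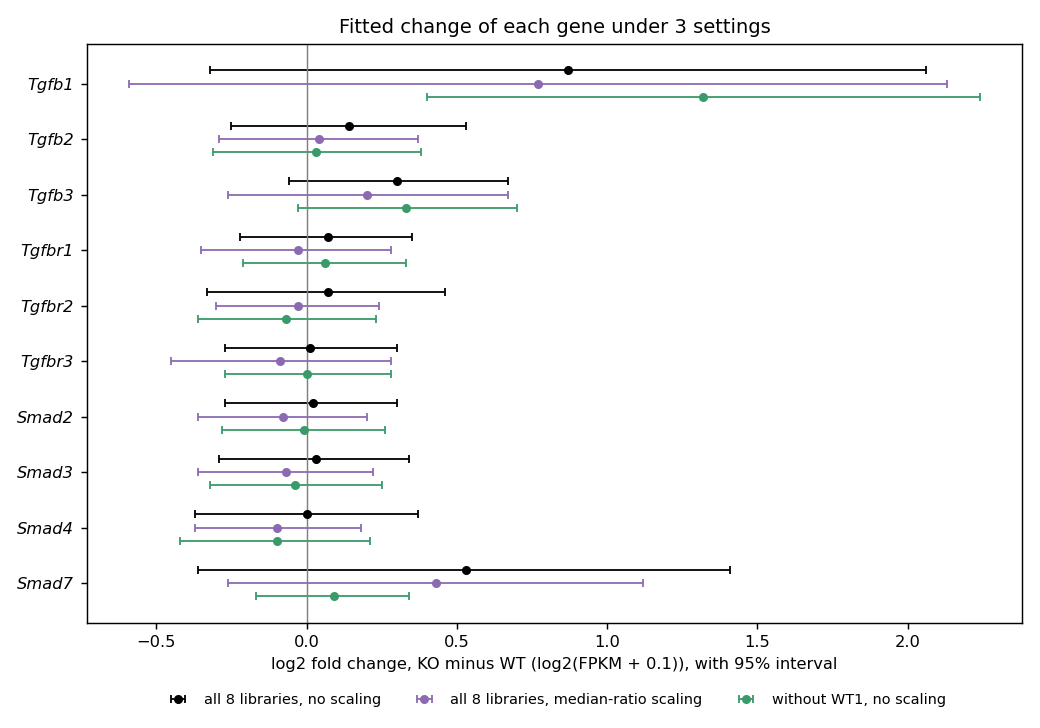
Log2 fold change (KO minus WT, on the log2(FPKM + 0.1) scale) with its 95% interval for each gene, over all 8 libraries without scaling (black), with median-ratio scaling (purple) and without WT1 (green). Of these intervals, that of Tgfb1 without WT1 (0.40 to 2.24) lies above 0 and the others span 0.

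Over all 8 libraries, the levels ranked Tgfbr2 first (mean 30.5 ± 4.54 FPKM, SD, n = 8), then Tgfb1 (24.1 ± 11.2), Tgfbr3 (23.3 ± 1.93) and Smad4 (21.2 ± 3.0). Tgfb2 (13.5 ± 2.16), Tgfbr1 (11.4 ± 0.833), Smad3 (10.4 ± 0.954), Smad7 (9.97 ± 2.89), Tgfb3 (8.99 ± 1.6) and Smad2 (8.26 ± 0.501) followed. One step of this order held in every library, in that Smad4 exceeded Tgfb2 in 8 of 8. The ranges of each pair of neighbours overlapped over the libraries, and Tgfb1 exceeded Tgfbr3 in 4 of 8 libraries. The median tested gene had a mean of 8.07 FPKM. Within groups, 8 of the 10 genes varied less than the median tested gene (SD 0.36 on the log2 scale), and Tgfb1 (0.87) and Smad7 (0.63) varied more. The WT libraries were also the more variable group over all tested genes, with a median SD of 0.42 against 0.24 in KO.

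The wider pathway was read from 5 lists of 67 genes, of which 66 were tested. At an unadjusted p-value under 0.05 in limma, 4 of the 66 were higher and 0 were lower in KO (6.06%, against 5.12% of all tested genes), and 0 passed the adjusted threshold. The 4 genes were Ccn2, Junb and Ccn1 among the target genes and Bmp2 in the BMP and activin branch. Their adjusted p-values were all 0.947. Groups without overlap were found for 2 of the 66 genes, Junb and Bmp2, which is close to the 3.5% of all tested genes.

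Target genes of TGF-beta had a median log2 fold change of 0.38, with 12 of 14 above 0, against 0.10 and 66.5% above 0 over all tested genes. These are unscaled values, and the list was chosen with earlier results of these data known. The count passing was 3 of 14, against 1 after median-ratio scaling, 0 without KO1 and 4 without WT1. Of all tested genes, 5.12% passed in the reported setting and 19.5% without WT1. After median-ratio scaling, 401 higher and 362 lower genes of 14986 passed. Without KO1, 551 higher and 57 lower genes of 15000 passed. Ccn2, which encodes connective tissue growth factor, was at 26.3, 25.4, 36.1 and 31.9 FPKM in WT1 to WT4 and at 47.0, 48.8, 40.2 and 32.0 in KO1 to KO4. Every KO value exceeded 3 of the WT values, and KO4 fell below WT3. Its log2 fold change was 0.48 (standard error 0.18, limma unadjusted p = 0.0268), and 0.38 after median-ratio scaling (limma unadjusted p = 0.0701). The call was also lost without WT2, KO1 or KO2, each left out in turn, at log2 fold changes of 0.41 to 0.42, and Ccn2 passed in 12 of 18 alternative settings. Its relative Ccn1, a matricellular protein, had a mean of 12.4 ± 1.31 FPKM in WT and 16.6 ± 2.96 in KO and rose by 0.40 on the log2 scale (limma unadjusted p = 0.0393). Ccn1 passed in 7 of 18 alternative settings. The call was lost after median-ratio scaling (0.30, limma unadjusted p = 0.0900), after quantile normalization (0.30, limma unadjusted p = 0.0844), without the variance trend (0.40, limma unadjusted p = 0.0512), whenever WT1, WT2, WT4, KO1, KO2 or KO3 was left out (0.31 to 0.42), and in both settings chosen after the values were seen (0.34 and 0.37). Junb, an AP-1 transcription factor induced early by TGF-beta, was at 2.80, 7.75, 7.47 and 7.97 FPKM in WT and at 12.1, 10.5, 12.2 and 9.12 in KO, and these groups did not overlap. Its log2 fold change was 0.85 (standard error 0.33, limma unadjusted p = 0.0307). It was 0.49 without WT1 (limma unadjusted p = 0.00638) and 0.75 after median-ratio scaling, and it did not pass without KO1, KO2 or KO3 (0.80 to 0.87). Junb passed in the other 15 of 18 alternative settings. Junb, Ccn1 and Ccn2 are also early response genes to many other signals. Tgfbi and Fn1, which encode matrix proteins induced by TGF-beta, had log2 fold changes of 0.15 and -0.11, with limma unadjusted p-values of 0.556 and 0.778. Against 4.61% of all tested genes, 1 of the 6 fibroblast marker genes was higher in KO at an unadjusted p-value under 0.05. This was Col1a2, a collagen gene, at 95.2 to 200.0 FPKM in WT and 262 to 391 in KO. These groups did not overlap, as was the case for 3.5% of all tested genes. TGF-beta induces collagen genes, and the miR-29 family represses many of the same matrix genes. The part of either in Col1a2 was not tested. The other 5 fibroblast genes summed to 186 to 291 FPKM in WT and 228 to 291 in KO, with overlap, and 0 of them passed. Tgfbi, Fn1 and Col1a2 were named after their values had been seen.

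In the BMP and activin branch, 1 of 19 tested genes was higher in KO and 0 were lower, with a median log2 fold change of 0.09. Over all tested genes, 4.61% were higher and 0.507% lower. Bmp2, a bone-inducing ligand, was at 2.45, 2.51, 1.64 and 2.93 FPKM in WT1 to WT4 and at 3.62, 4.35, 3.72 and 3.5 in KO1 to KO4, without overlap. Its log2 fold change was 0.67 (standard error 0.21, limma unadjusted p = 0.0121), and it was 0.70 without WT1 and 0.58 after median-ratio scaling. Bmp2 was the one gene of the 4 that passed in all 18 alternative settings. Inhba, an activin subunit, and Id1, a BMP target, had log2 fold changes of 0.52 and 0.40 and did not pass (limma unadjusted p = 0.126 and 0.218). Without WT1, where 19.5% of all tested genes passed, Inhba was at 0.77 (limma unadjusted p = 0.0118) and Id1 at 0.10 (limma unadjusted p = 0.578).

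The remaining lists held 0 genes that passed in either direction. Among 11 genes for latency and activation (median log2 fold change 0.15), the smallest p-values were those of the latent binding proteins Ltbp2 and Ltbp1 and of the integrin subunit Itgav. Their log2 fold changes were 0.47, 0.35 and -0.25, with limma unadjusted p-values of 0.0612, 0.0993 and 0.295. Leaving out 1 library gave Ltbp2 an unadjusted p-value under 0.05 (without WT2, 0.0468 by limma, or KO3, 0.0415), and Ltbp1 without WT1 (0.0151). Ltbp1 was at 0.21 without WT3, and Itgav at -0.05 without KO1. Among 11 negative regulators (median 0.20), they were those of the decoy receptor Bambi, Smad6 and the ubiquitin ligase Smurf1, at log2 fold changes of 0.47, 0.63 and 0.33 and limma unadjusted p-values of 0.0904, 0.132 and 0.159. Without WT1, Smad6 was at 0.22 and Smurf1 at 0.14. Among 11 receptor partners and mediators of non-Smad signalling (median 0.13), they were those of the kinase adaptor Tab1, the type I receptor Acvrl1 and the deubiquitinase Usp15. Their log2 fold changes were 0.32, 0.24 and 0.22, with limma unadjusted p-values of 0.128, 0.145 and 0.192. Tab1 was at 0.16 without WT1, and Usp15 at 0.10 without WT3.

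**Figure D5:**
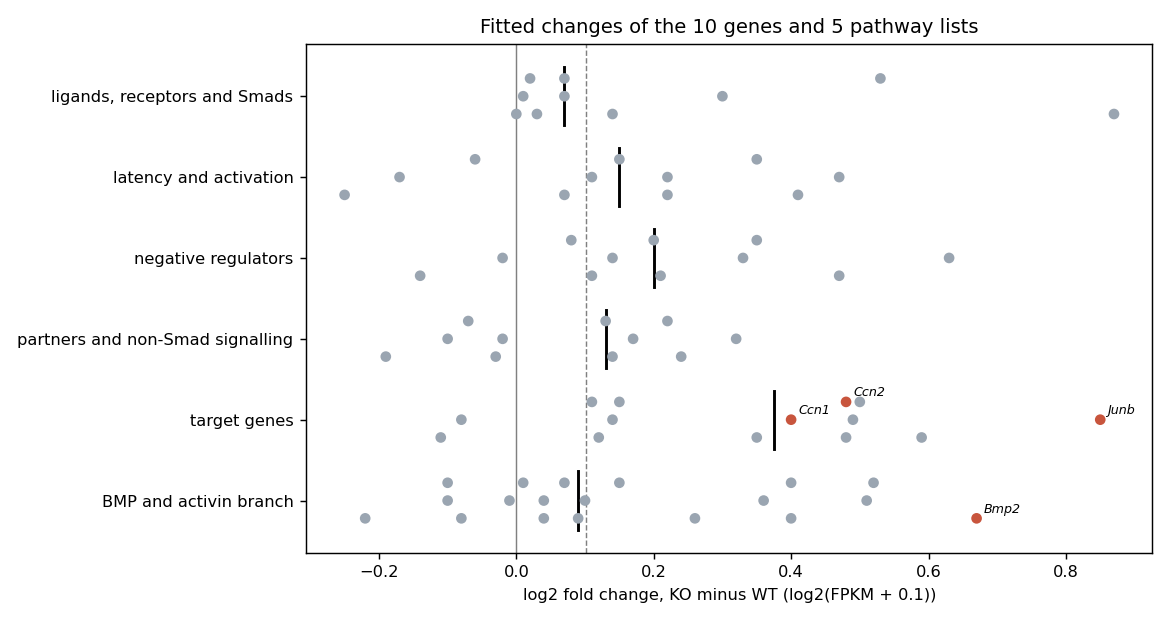
Log2 fold change (KO minus WT, on the log2(FPKM + 0.1) scale) of the 10 genes (top row) and of the tested genes of 5 pathway lists, 1 point per gene, red where limma's unadjusted p-value was under 0.05, with a black bar at each list's median. The dashed line marks the median of all tested genes (0.10). The 4 red points are Ccn1, Ccn2, Junb and Bmp2.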

How the data were processed

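The libraries were strand-specific and depleted of ribosomal RNA, and the labels also describe RNase R, an enzyme that degrades linear RNA, in their preparation. Paired-end reads were mapped with Hisat2 by the authors, who deposited FPKM per gene and library. The tool and annotation behind the FPKM are not given in the sources used here. The processing notes name mm9, but the file's coordinates match GRCm38: those of 9 of the 10 genes are the same in GENCODE M21. All 8 columns were used (0 per-sample columns unused), and 27 symbols turned into dates were restored by gene identifier. Column totals ranged from 249221 to 288695 FPKM, and depth is otherwise unknown.

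The authors tested counts with DESeq2, and counts were not used here. Log2(FPKM + 0.1) of genes with a mean of at least 0.5 FPKM was fitted with limma 3.58.1 in R 4.3.3, with genotype as the only factor and a mean-variance trend. Calls used the threshold of the study's methods, a two-sided p-value under 0.05 without adjustment, and Benjamini-Hochberg adjusted values over all tested genes are given beside it. The fit was tested on simulated data. Genes named were the 10 genes, the 3 smallest p-values in each of 5 pathway lists and the 3 genes nearest to the gene with the smallest p-value. The 10 genes, the pathway lists and 17 marker lists were chosen with earlier results of these data known.

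Marker lists not given elsewhere had these tested genes called. Of hair cell, spiral ligament, neuron, glia and endothelial genes, 0 were called. Higher in KO were 1 of 4 cartilage and 1 of 7 skeletal muscle genes, against 4.61% of all tested genes.

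Alternatives were a pseudocount of 1, no filter and a minimum mean of 1 FPKM, median-ratio scaling, quantile normalization, no variance trend, the replicate number as a block, libraries 1 to 3 of each group (the study states 3 per group for its sequencing comparison without saying which, whereas the deposited table holds 4), and leaving out each library. Leaving out WT1 with WT3, and scaling without WT1, were added after seeing the data.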

Additional observations from a re-analysis of the deposited data

Results flagged for a closer look

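In 5 of 50 groups of 4 values (the 10 genes and the 15 named pathway genes, by genotype), 1 library stood apart by more than Dixon's 95% critical value. Chance alone flags about 1 in 20. KO4 was the lowest KO library for Tgfb1 (20.7 FPKM, against 30.8 or more) and the highest for Tgfb2 (16 FPKM, against 13.6 or less) and for Tab1 (12.1 FPKM). WT3 was the lowest WT library for Tgfb3 (7.09 FPKM), and WT1 was the lowest for Junb (2.80 FPKM). The causes were not tested.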

How the results depend on the processing

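None of the 10 genes passed the unadjusted threshold under any other setting that kept all 8 libraries, and 0 passed it after adjustment in any setting. The count was 0 to 1 with 1 library left out (Tgfb1 without WT1, Tgfb3 without KO4) and 1, Tgfb1, both with WT1 and WT3 left out (log2 fold change 0.76) and with median-ratio scaling and WT1 left out (1.33). Tgfb1 ran from 0.35 to 1.33, Tgfb2 from 0.03 to 0.28, Tgfb3 from 0.19 to 0.41 and Smad7 from 0.02 to 0.71 over 18 alternatives, all above 0. The other 6 changed sign. With median-ratio scaling, quantile normalization and 1 library left out, the log2 fold changes were -0.03, -0.04 and 0.01 to 0.10 for Tgfbr1, -0.03, -0.02 and -0.07 to 0.17 for Tgfbr2, -0.09, -0.07 and -0.05 to 0.07 for Tgfbr3, -0.08, -0.11 and -0.01 to 0.06 for Smad2, -0.07, -0.09 and -0.04 to 0.08 for Smad3, and -0.10, -0.10 and -0.10 to 0.11 for Smad4. Leaving out WT1 and WT3 gave -0.05 for Smad2 and -0.12 for Smad3. Scaling without WT1 gave -0.06 for Tgfbr2, -0.03 for Smad3 and -0.09 for Smad4.

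Pathway genes called numbered 4 in the reported setting, 2 with median-ratio scaling, 1 to 9 with 1 library left out (9 without WT1, 1 without KO1) and 7 in each setting added later. Target genes called numbered 3, 1 with median-ratio scaling and 0 to 4 with 1 library left out (4 without WT1). The share of all tested genes called was 5.12% in the reported setting, 19.5% without WT1 and 16.1% with WT1 and WT3 left out. Over all tested genes, 691 were higher and 76 lower (90.1% of calls higher). These counts were 401 and 362 with median-ratio scaling (52.6%), 378 and 547 with quantile normalization (40.9%), 1381 and 1049 with WT1 and WT3 left out, and 1947 and 1306 with scaling and WT1 left out. With 1 library left out they were 292 to 1810 and 35 to 1112, the highest without WT1. Lower calls numbered 148 without a filter, where 3 genes passed adjustment, and 42 in libraries 1 to 3. The causes were not tested. Correlations by replicate number were mixed in sign (0.419, -0.24, -0.17 and 0.21), which leaves it undecided whether the numbers pair the libraries. A block for the number in the limma fit gave 738 higher and 100 lower genes, and 0 of the 10 genes passed. Under that block Ltbp2 passed and Ccn2 did not (limma unadjusted p = 0.056). Read depth behind the FPKM is unknown, so counting error could not be given.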
